A study of Mus musculus with 10 samples.

Results

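The cadherins and protocadherins were followed as a gene family through every cell class of the mouse medial prefrontal cortex. Members were the genes found in the feature lists of all 10 libraries by Ensembl identifier whose symbol begins with Cdh and a digit or with Pcdh. The rule gave 92 of 30406 shared genes, of which 57 lie in the clustered protocadherin arrays (14 α, 22 β and 21 γ genes) and 35 lie outside them. Single-cell RNA sequencing with 10x Genomics droplets compared 5 libraries from rank 1 mice, the social dominants of their group in the tube test, with 5 libraries from rank 4 mice, the subordinates. The tube test ranks cage mates by who retreats when 2 mice enter a tube from opposite ends. All mice were male C57BL/6N, an inbred strain, were over 2 months old and carried no allele or agent named in the labels, and rank was measured and not imposed. The tissue was taken 1 day after the last test and dissociated with papain. A library pooled 2 to 3 mice of the same rank, so the values below are those of pools and not of single animals.

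Cadherins are calcium-dependent adhesion molecules that bind their like on a facing membrane through repeated extracellular domains. Classical cadherins of type I and type II hold on to the actin cytoskeleton through catenins, while δ-protocadherins are single-copy genes with other cytoplasmic partners, and many of both groups mark particular layers and nuclei of the brain. Clustered protocadherins are chosen from tandem arrays of promoters in each neuron and give it a surface identity, with the α and γ genes splicing their own first exon to a shared set of last exons.

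The libraries held between 4442750 and 29278466 UMIs (unique molecular identifiers, 1 count per captured RNA molecule) over 1838 to 15826 barcodes, and 47478 of 64937 barcodes were kept. They fell into 9 classes with enough cells for a test: 16720 excitatory neurons, 8676 astrocytes, 4619 endothelial cells, 3816 microglia, 3444 oligodendrocyte precursors, 2460 oligodendrocytes, 2142 inhibitory neurons, 1796 pericytes and 539 smooth muscle cells. Excitatory neurons held 6 subclasses named by layer and axon target, where IT stands for intratelencephalic cells, PT for pyramidal tract cells, NP for near-projecting cells and CT for corticothalamic cells, and inhibitory neurons held Lamp5, Pvalb, Sst and Vip types. The names were given from markers and mean cells like that class or type. Every fixed marker of the class, subclass or type had UMIs in it, except Chrna2, which was at 0 in L5 PT cells. No pair of libraries shared more than 104 barcodes, at most 1.70% of the smaller one. In both ranks, replicates 1 to 3 were written by software version 3.1.0 and replicates 4 and 5 by version 4.0.0, a division that moved many members and is given with its values below.

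Members made up 245828 of 113543086 UMIs in kept cells (0.217%). The 9 δ-protocadherins took 56.4% of these, the 13 type II cadherins 15.4%, the 5 type I cadherins 8.49%, the other 5 cadherins 5.98%, the β cluster 4.72%, the γ cluster 4.26%, the 3 remaining single-copy protocadherins 3.38% and the α cluster 1.34%. Pcdh10 had the most UMIs (34290), followed by Pcdh17 (29044), Pcdh9 (27265), Pcdh7 (17633) and Cdh2 (17229). UMIs are counted at the 3′ end of transcripts and are not scaled by length, so levels are compared below within a gene and not between genes. All 92 members had at least 1 UMI. Cdh1, Cdh3, Cdh16, Cdh17, Cdh26, Pcdhb1 and Pcdhac1 stayed under 50 UMIs and were not tested, which left 85 members in the fit of classes, 75 in that of subclasses and 33 in that of interneuron types. The 14 α genes and the 21 γ genes of the annotation each share their last exon with all other members of their cluster, and Pcdhb21 and Pcdhb22 overlap, so counts of single genes among these are uncertain.

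Members were called higher most often in neurons and in oligodendrocyte precursors. UMIs were summed per library and class and scaled to CPM (counts per 1000000 UMIs of that sum), and each class was set against the mean of the other 8 with the library as a block. A member was called higher where edgeR's quasi-likelihood test gave a Benjamini-Hochberg adjusted p under 0.05 over all 15728 genes and the log2 fold change was at least 1. By this rule 48 of 85 members were higher in inhibitory neurons, where 17.2% of all genes were. The count was 44 of 85 in excitatory neurons (24% of all genes), 43 in oligodendrocyte precursors (12.4%), 17 in astrocytes (15.4%), 10 in endothelial cells (13.9%), 7 in oligodendrocytes (7.45%), 6 in pericytes (7.53%), 3 in smooth muscle cells (9.28%) and 1 in microglia (12.1%). The median log2 fold change of the members was 1.23 in inhibitory neurons, 1.07 in oligodendrocyte precursors and 1.01 in excitatory neurons, against 0.07, 0.02 and 0.23 for all genes. In smooth muscle cells it was -1.997 against -0.50, and in microglia -0.69 against -0.09. The α, β and γ clusters had 6, 28 and 20 UMIs in all in smooth muscle cells, so the values of most members there rest on few counts. Members lower by the same rule numbered 17 in smooth muscle cells (14.1% of all genes), 15 in microglia (6.25%), 13 in endothelial cells (6.45%), 13 in oligodendrocytes (8.96%), 10 in astrocytes (8.12%), 5 in pericytes (3.28%), 3 in oligodendrocyte precursors (7.56%), 2 in excitatory neurons (13.2%) and 2 in inhibitory neurons (13.4%).

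**Figure D1:**
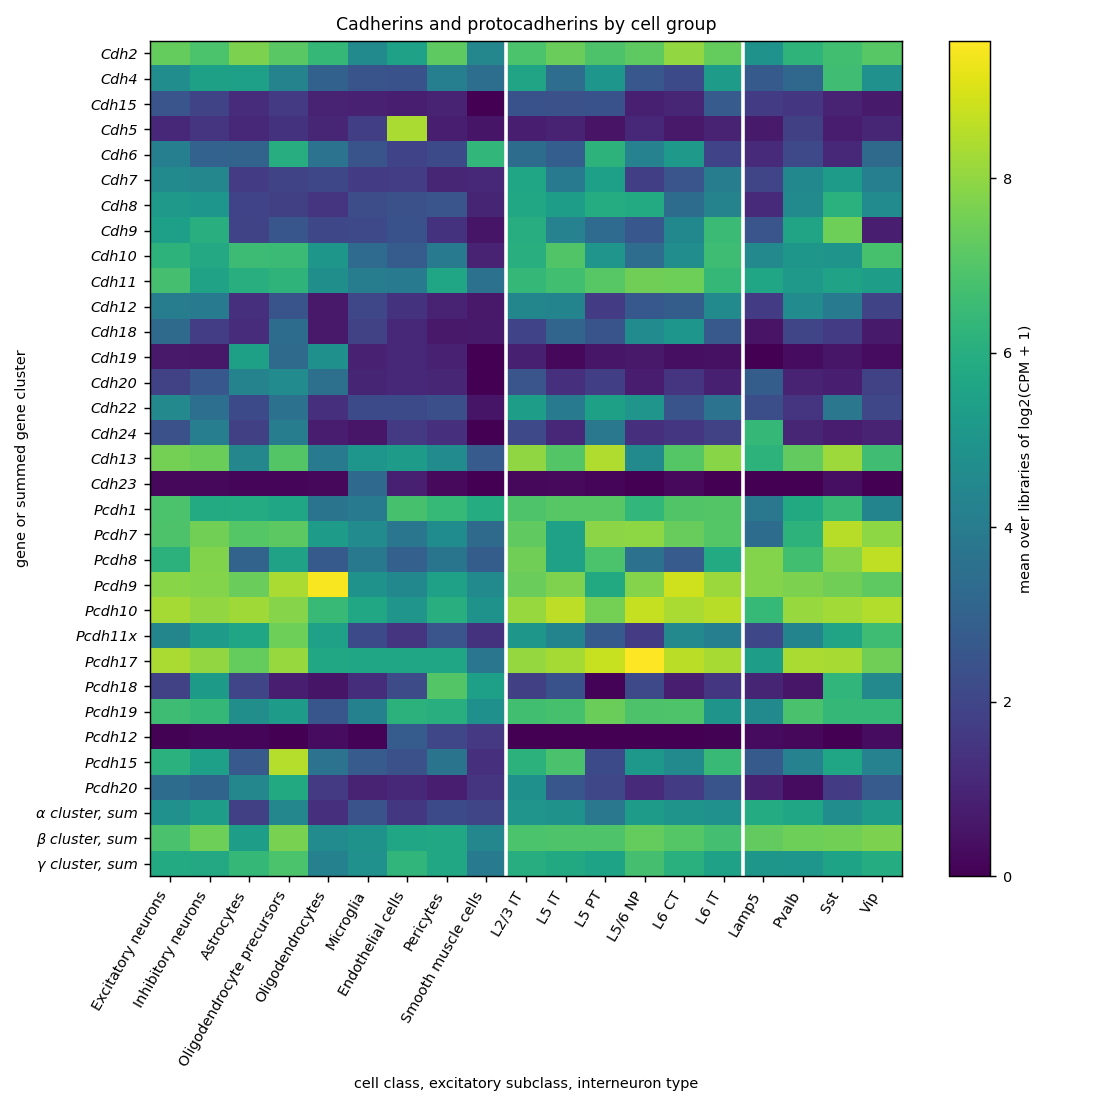
Mean over libraries of log2(CPM + 1) for the single-copy members in the fit of classes and for the summed α, β and γ clusters (rows), over 9 cell classes, 6 excitatory subclasses and 4 interneuron types (columns, divided by white lines). Pcdh9, Pcdh10 and Pcdh17 are higher in neurons, astrocytes and oligodendrocyte precursors than in microglia and vessel cells, while Cdh5, Cdh19, Cdh24 and Pcdh18 are high in few columns; colours compare columns within a row, since counts are not scaled by length.

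Among the type I cadherins, Cdh2 (N-cadherin, the neural classical cadherin) had UMIs in every class, with a median over libraries (10 for each class, 8 for smooth muscle cells) of 215 CPM in astrocytes, 162 in excitatory neurons, 155 in pericytes and 147 in oligodendrocyte precursors, and 34.7 in smooth muscle cells. Erythroid barcodes, which should lack Cdh2, held 44.1 CPM (63 UMIs pooled over libraries), above the smooth muscle median. Whether the smooth muscle level is background was not tested. Cdh2 was called higher in astrocytes alone of the 9 classes (log2 1.49). Cdh4 (R-cadherin) had a median of 52.8 CPM in inhibitory neurons and 38.5 in astrocytes and was higher in both (1.47 and 1.54), with 7.47 in endothelial cells. Cdh15 (M-cadherin, first known from muscle) was low everywhere, with a highest median of 4.48 CPM in excitatory neurons.

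Type II cadherins divided between vessels, glia and neurons. Cdh5 (VE-cadherin, the adherens junction cadherin of endothelium; chr8:104101625-104144511 on GRCm38) ranged from 218 to 612 CPM in endothelial cells with a median of 315, while its median lay between 0 and 3.60 CPM in the other 8 classes tested. In classes too small for a test it had 57.4 CPM in erythroid barcodes (82 UMIs) and 59.98 CPM in fibroblasts (14 UMIs), pooled over libraries. Its log2 fold change in endothelial cells was 7.27 (SE 0.13, adjusted p 2.6e-72 by edgeR). Cdh19 (a cadherin known from glia of peripheral nerve; chr1:110888326-110977584) had a median of 38.6 CPM in astrocytes (28.9 to 84.5), 24.1 in oligodendrocytes and 9.02 in oligodendrocyte precursors, and at most 1.67 elsewhere. The astrocyte value was above that of each other class within all 10 libraries (log2 4.63, SE 0.19). Cdh20 followed the same glial classes, with log2 fold changes of 2.79 in astrocytes, 2.83 in oligodendrocytes and 2.70 in oligodendrocyte precursors. Cdh6 stood in different cells: its median was 86.7 CPM in smooth muscle cells (log2 3.12), 68.4 in oligodendrocyte precursors (2.04), 16.6 in excitatory neurons and 4.11 in endothelial cells. Cdh7, Cdh8, Cdh9 and Cdh12 were higher in both neuron classes, Cdh22 in excitatory neurons, and Cdh18 in excitatory neurons (2.35) and oligodendrocyte precursors (1.61). Cdh9 had a median of 63.8 CPM in inhibitory neurons, 41.1 in excitatory neurons and at most 7.65 elsewhere (log2 3.09 in inhibitory neurons, SE 0.17).

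Pcdh15 and Cdh23 are the pair known to form the tip links of inner-ear hair cells, and here they stood in separate glial classes. Pcdh15 (chr10:73099342-74649737) ranged from 274 to 505 CPM with a median of 367 in oligodendrocyte precursors, against medians of 73.6 in excitatory neurons, 45.3 in inhibitory neurons, 14.8 in oligodendrocytes and 6.59 in astrocytes. The range did not overlap with that of any other class (log2 4.35, SE 0.12, adjusted p 5.0e-53 by edgeR). Cdh23 was the 1 member called higher in microglia (log2 5.23, SE 0.31), but it rested on few molecules: in rank 1 replicates 1 to 5 it had 13, 1, 1, 9 and 13 UMIs there, and in rank 4 10, 0, 5, 7 and 7. Cdh13 (T-cadherin, held by a lipid anchor and without a cytoplasmic tail) had medians of 211 CPM in excitatory neurons, 174 in inhibitory neurons (89.1 to 322), 134 in oligodendrocyte precursors (76.8 to 181) and 23.0 in astrocytes, and the ranges of the first 3 overlapped. Pcdh20 had a median of 55.1 CPM in oligodendrocyte precursors (log2 3.07) and 20.4 in astrocytes (1.93). Pcdh12 (a protocadherin of endothelium) was higher in endothelial cells (3.91), pericytes (3.35) and smooth muscle cells (3.22), from 1 to 15 UMIs a library in endothelial cells. Pcdh12, Pcdh15 and Pcdh20 together had 75 UMIs in pericytes and 13 in smooth muscle cells, so the calls of Pcdh12 there rest on few molecules.

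The δ-protocadherins were broad with a few sharp exceptions. Pcdh9 (chr14:93013410-93890679) had a median of 708 CPM in oligodendrocytes, from 514 to 1048, against 308 in oligodendrocyte precursors, 240 in excitatory neurons, 231 in inhibitory neurons and 183 in astrocytes. Its oligodendrocyte level was above that of every other class in every library (log2 2.86, SE 0.14). Pcdh18 (chr3:49743296-49757325) had a median of 137 CPM in pericytes, from 45.3 to 399, then 37.3 in inhibitory neurons, 31.0 in smooth muscle cells and under 5 in the other 6 classes. Its log2 fold change was 4.69 in pericytes (SE 0.18), 3.41 in smooth muscle cells and 2.61 in inhibitory neurons. Pcdh8 (arcadlin, a gene induced by neuronal activity) had a median of 248 CPM in inhibitory neurons, 77.4 in excitatory neurons and 44.1 in oligodendrocyte precursors, and 6.23 in endothelial cells. Pcdh11x, an X-linked gene, was highest in oligodendrocyte precursors (median 178 CPM, 121 to 222; log2 3.23, SE 0.15), with 49.3 in astrocytes and 20.3 in excitatory neurons. Pcdh10, Pcdh17 and Pcdh7 were called higher in both neuron classes, with Pcdh10 (1.65) and Pcdh7 (1.44) also in astrocytes and Pcdh17 (1.27) and Pcdh7 (1.07) in oligodendrocyte precursors. Pcdh1 was the 1 δ-protocadherin called higher in endothelial cells (1.11; median 112 CPM, and 102.5 in excitatory neurons).

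**Figure D2:**
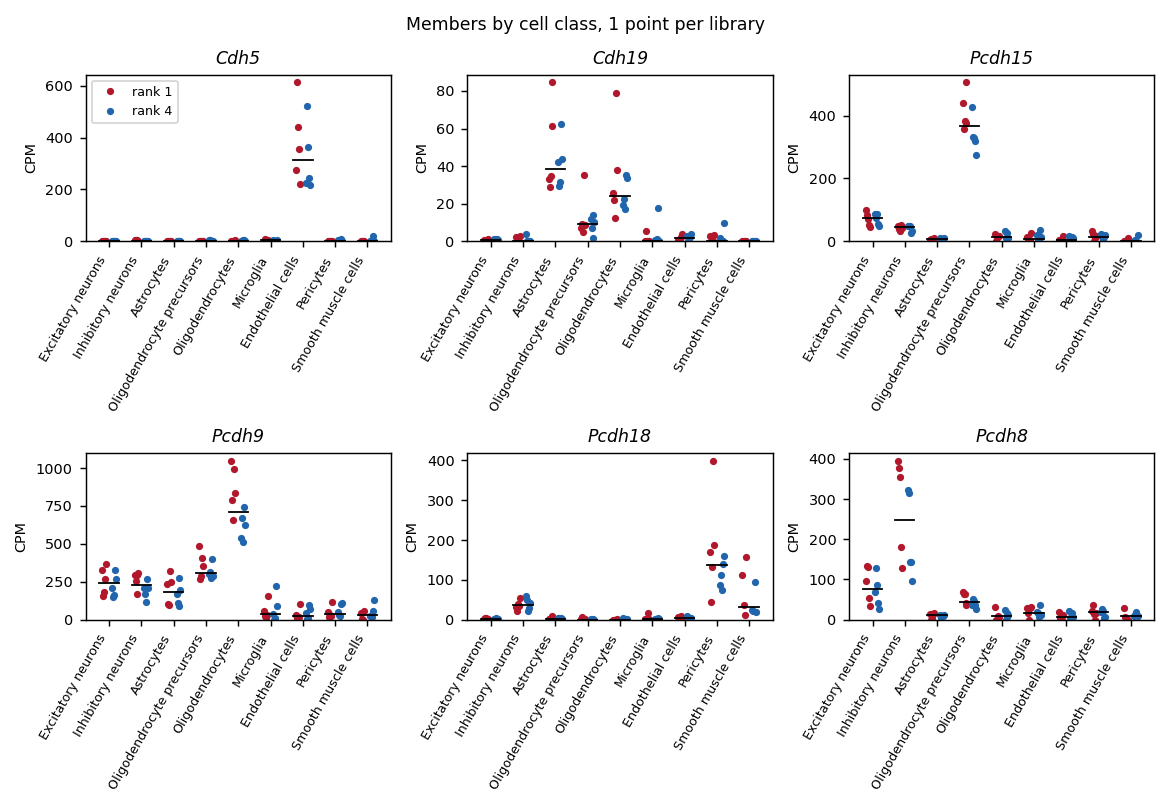
CPM of 6 members (panels, linear axes from 0) in 9 cell classes, with 1 point per library in red for rank 1 and blue for rank 4 and a bar at the median over libraries. Cdh5 stands in endothelial cells, Cdh19 in astrocytes and oligodendrocytes, Pcdh15 in oligodendrocyte precursors, Pcdh9 in oligodendrocytes, Pcdh18 in pericytes and Pcdh8 in inhibitory neurons, with medians of 315, 38.6, 367, 708, 137 and 248 CPM in the class first named.

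Promoter sequence was taken from RefSeq on GRCm38.p6 for the members whose level was above every other group in every library or that had the most UMIs, where the table held a window lying outside the annotated gene. They are shown because these genes differ most sharply between cell groups or carry most of the family's signal. In all, 22 of the 92 members had an entry, with 25 windows. Each line gives the 150 bases before the transcript start, 5′ to 3′ on the gene's strand, with the box CCAAT or its reverse complement ATTGG and the box TATAAA in capitals.
Pcdh8 (chr14:79771313-79771462, minus strand): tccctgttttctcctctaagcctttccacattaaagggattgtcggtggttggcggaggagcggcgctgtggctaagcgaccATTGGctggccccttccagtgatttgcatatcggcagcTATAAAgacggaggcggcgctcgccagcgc
Pcdh20 (chr14:88471397-88471546, minus strand): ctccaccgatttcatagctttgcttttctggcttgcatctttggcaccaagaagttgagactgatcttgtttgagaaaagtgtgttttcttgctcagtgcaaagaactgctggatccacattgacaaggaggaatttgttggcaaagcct
Cdh24 (chr14:54641365-54641514, minus strand): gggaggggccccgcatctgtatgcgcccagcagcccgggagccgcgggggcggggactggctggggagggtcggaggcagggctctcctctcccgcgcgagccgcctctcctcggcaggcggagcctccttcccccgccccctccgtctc
Cdh6 (chr15:13173676-13173825, minus strand): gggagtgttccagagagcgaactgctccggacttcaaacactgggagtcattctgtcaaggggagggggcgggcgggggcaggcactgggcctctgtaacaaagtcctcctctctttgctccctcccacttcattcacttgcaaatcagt
Pcdh9 (chr14:93890680-93890829, minus strand): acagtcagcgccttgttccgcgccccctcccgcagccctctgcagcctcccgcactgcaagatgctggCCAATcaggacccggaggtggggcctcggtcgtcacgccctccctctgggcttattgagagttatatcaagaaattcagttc
Pcdh10 (chr3:45378248-45378397, plus strand): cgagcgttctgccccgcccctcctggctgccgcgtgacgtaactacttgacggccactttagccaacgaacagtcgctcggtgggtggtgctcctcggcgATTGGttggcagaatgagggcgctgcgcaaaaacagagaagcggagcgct
Pcdh17 (chr14:84443413-84443562, plus strand): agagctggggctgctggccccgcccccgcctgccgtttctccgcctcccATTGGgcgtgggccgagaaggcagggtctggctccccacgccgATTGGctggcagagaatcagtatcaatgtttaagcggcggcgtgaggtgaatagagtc

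CCAAT, on either strand, was in 14 of the 25 member windows (56%) and in 24.5% of the 32851 windows of the same length in the table. TATAAA, or its reverse complement TTTATA, was in 2 of 25 (8%), those of Pcdh8 and Pcdh15, against 7.57% of all windows. The windows of the 22 members are not independent draws, the boxes were chosen after the sequences had been seen, and no test was made. CpG content differed among the printed windows: Pcdh10 had 16 CpG, Cdh24 15, Pcdh8 and Pcdh17 11 each, Pcdh9 9, Cdh6 4 and Pcdh20 1, against a median of 4 over all windows. Pcdh20, Cdh24 and Cdh6 had neither box in these letters.

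Within excitatory neurons, most calls were of type II cadherins and single-copy protocadherins. Each subclass was set against the mean of the other 5 by the same rule (10 libraries each, 8 for L6 CT and 7 for L5/6 NP). Of 75 members, 10 were higher in L2/3 IT cells (4.8% of 13572 genes), 8 in L5 PT (3.38%), 6 in L6 IT (3.48%), 4 in L5 IT (4.12%), 3 in L5/6 NP (4.13%) and 3 in L6 CT (3.68%). Lower members numbered 11 in L5/6 NP (5.25%), 8 in L6 CT (3.57%), 7 in L5 PT (4.49%), 4 in L6 IT (2.09%), 3 in L5 IT (1.63%) and 1 in L2/3 IT cells (2.65%). Of the 34 higher calls, 2 were of clustered genes, Pcdhb6 and Pcdhgc4, both in L5/6 NP cells, and of the 34 lower calls 6 were (Pcdha5, Pcdhb3, Pcdhb6, Pcdhb7, Pcdhgb7 and Pcdhgc5). The members' median log2 fold change ranged from -0.17 in L5 PT to 0.18 in L2/3 IT cells, against -0.05 and 0.03 for all genes.

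Pcdh20 was the member most restricted to L2/3 IT cells, at a median of 28.1 CPM (16.1 to 37.5) with 6.31 in L5 IT and 0 in L5/6 NP cells, and the L2/3 IT value was the highest within every library (log2 2.60, SE 0.19). Pcdh8 had a median of 192 CPM in L2/3 IT (82.7 to 316), then 131 in L5 PT, 77.3 in L6 IT, 41.6 in L5 IT, 14.3 in L5/6 NP and 5.84 in L6 CT cells, and its log2 fold change in L2/3 IT was 2.32 (SE 0.10, adjusted p 5.3e-42 by edgeR). L2/3 IT cells were also higher in Cdh7 (2.16), Cdh9 (1.64), Cdh4 (1.60), Pcdh11x (1.52), Cdh20 (1.27), Cdh12 (1.09), Pcdh15 (1.07) and Cdh22 (1.04).

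Cdh6 (chr15:13028701-13173675) separated L5 PT cells from both L5 IT and L6 IT cells. Its median was 79.4 CPM in L5 PT (40.4 to 126), 33.8 in L6 CT, 30.4 in L5/6 NP, 12.4 in L2/3 IT, 6.91 in L5 IT and 3.102 in L6 IT cells, with the L5 PT level the highest within every library (log2 2.22, SE 0.14). Cdh13 (chr8:118283733-119324921) had a median of 365 CPM in L5 PT (259 to 422), 262 in L2/3 IT, 250 in L6 IT, 145 in L5 IT, 125 in L6 CT and 38.0 in L5/6 NP cells. Its log2 fold change in L5 PT was 1.29 (SE 0.09), and 0.79 under the stricter cell filter, below the fold required for a call. Cdh24 (2.03), Cdh7 (2.00), Pcdh8 (1.55), Cdh22 (1.37), Cdh4 (1.33) and Cdh8 (1.22) were the other members higher in L5 PT cells, and Pcdh15 was lower there (-2.88; median 4.95 CPM against 112 in L5 IT).

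Pcdh9 had a median of 481 CPM in L6 CT cells (353 to 592), 289 in L6 IT, 218 in L5/6 NP, 208 in L5 IT, 167 in L2/3 IT and 68.1 in L5 PT cells (log2 1.50, SE 0.07). Cdh18 was higher in L6 CT (1.54) and in L5/6 NP cells (1.49), with medians of 38.3 and 54.3 CPM, against 2.36 in L2/3 IT. Cdh9 ran the other way between the 2 layer 6 subclasses: its median was 96.8 CPM in L6 IT (log2 2.55) and 30.6 in L6 CT. L5 IT cells were higher in Pcdh15 (1.86), Cdh10 (1.76), Pcdh18 (1.28) and Cdh12 (1.17). Pcdh17 reached its highest median in L5/6 NP cells (787 CPM against 262 to 411 in the other 5), with a log2 fold change of 0.99, just under the size required.

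Among interneurons, 9 of 33 members were higher in Sst cells than in the mean of the other 3 types (4.24% of 9812 genes), 5 in Vip (3.45%), 3 in Pvalb (4.86%) and 1 in Lamp5 cells (3.54%), and 14 were lower in Lamp5 cells (5.09%), 3 in Pvalb (3.47%), 1 in Sst (2.07%) and 1 in Vip cells (2.54%). The libraries of both ranks together gave these 18 calls of a member higher in a type, while rank 1 libraries alone gave 15 and rank 4 libraries alone gave 3. Each type had 8 or 9 libraries with enough cells. Cdh9 (chr15:16728756-16857094) had a median of 168 CPM in Sst cells (136 to 276), 49.3 in Pvalb, 9.19 in Lamp5 and 0 in Vip cells (log2 3.56, SE 0.21, adjusted p 6.5e-65 by edgeR). The other 8 were Pcdh18 (3.54), Cdh4 (2.38), Cdh8 (2.00), Pcdh7 (1.99), Cdh13 (1.43), Cdh7 (1.35), Cdh22 (1.25) and Pcdh1 (1.09). Pcdh18 had a median of 82.0 CPM in Sst, 57.1 in Vip and 0 in Pvalb and Lamp5 cells. Cdh24 (chr14:54631231-54641364) was the 1 member called higher in Lamp5 cells (log2 4.56, SE 0.37). There its values in rank 1 replicates 1 to 5 were 130, 114, 97.0, 55.1 and 90.6 CPM, and 80.1, 100, 50.9 and 53.7 CPM in rank 4 replicates 1, 2, 4 and 5, from 3 to 13 UMIs each. Its median was 0 CPM in the other 3 types, whose highest value in any library was 8.38 CPM, below every Lamp5 library. Vip cells were higher in Pcdh18 (2.49), Pcdh11x (2.17), Cdh10 (1.69), Pcdh8 (1.22) and Pcdh7 (1.17), and Pvalb cells in Pcdhac2 (1.54), Cdh12 (1.18) and Cdh9 (1.02).

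**Figure D3:**
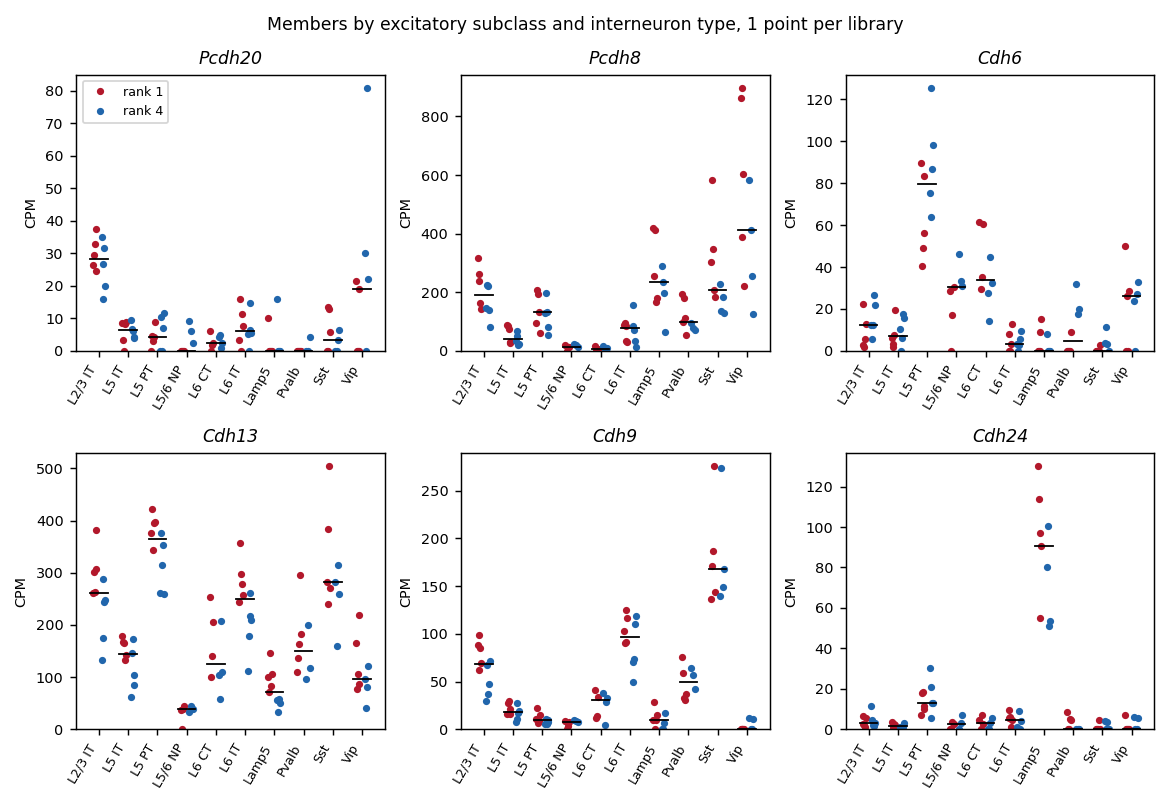
CPM of 6 members (panels, linear axes from 0) in 6 excitatory subclasses and 4 interneuron types, with 1 point per library in red for rank 1 and blue for rank 4 and a bar at the median over libraries. Pcdh20 stands in L2/3 IT cells (median 28.1 CPM), Cdh6 in L5 PT cells (79.4), Cdh9 in Sst cells (168) and Cdh24 in Lamp5 cells, while Cdh13 is lowest in L5/6 NP cells (38.0).

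Excitatory and inhibitory neurons were also set against each other in the fit of classes. Of 85 members, 6 were higher in excitatory neurons (9.28% of all genes) and 13 in inhibitory neurons (6.66%), with a median log2 fold change of -0.22 for the members and 0.12 for all genes. Cdh18 (1.79, SE 0.26), Cdh22 (1.35, SE 0.20), Cdh11 (1.33, SE 0.15), Pcdhga10 (1.20, SE 0.36), Pcdhgc5 (1.13, SE 0.26) and Pcdh1 (1.08, SE 0.18) were the 6 higher in excitatory neurons. Cdh11 (OB-cadherin) had medians of 113 CPM in excitatory and 51.1 in inhibitory neurons. The largest differences towards inhibitory neurons were those of Pcdh18 (-3.75, SE 0.22), Pcdh12 (-1.78, SE 0.65), Cdh24 (-1.63, SE 0.22), Pcdhb2 (-1.57, SE 0.36) and Pcdh8 (-1.49, SE 0.17). That of Pcdh12 rested on 3 UMIs in the inhibitory neurons of rank 4 replicate 5 and none in those of the other 9 libraries, and it was 0.28 without that library. Cdh18 (0.96, adjusted p 0.21 by edgeR) and Pcdhgc5 (0.63, adjusted p 0.35) did not pass in the libraries of version 3.1.0 alone. Pcdhga10 fell short of the call without rank 4 replicate 4 (0.91) and in rank 1 libraries alone (0.76), Pcdhgc5 likewise (0.87 and 0.91), and Pcdhb2 did not pass in rank 1 libraries alone (-1.10, adjusted p 0.24 by edgeR).

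The clustered protocadherins lie on chromosome 18, the α genes between 36930184 and 37187661, the β genes between 37264938 and 37524479 and the γ genes between 37661793 and 37841873 on GRCm38. The summed α cluster had medians of 47.2 CPM in inhibitory neurons, 22.9 in excitatory neurons and 13.7 in oligodendrocyte precursors and at most 6.55 in the other 6 classes. The β cluster had medians of 203 CPM in oligodendrocyte precursors, 178 in inhibitory and 114 in excitatory neurons, and between 28.3 and 60.5 in the other classes. The γ cluster had medians of 85.0 CPM in oligodendrocyte precursors (43.3 to 368), 78.8 in astrocytes, 69.9 in endothelial cells, 63.6 in inhibitory neurons, 58.5 in excitatory neurons (22.6 to 125) and 51.2 in pericytes, and between 22.4 and 29.9 in the other 3 classes. These medians pool libraries of both software versions, between which the γ sum differed. Of 13 α, 21 β and 21 γ genes tested, 13, 21 and 1 were higher in inhibitory neurons (17.2% of all genes), 12, 12 and 2 in excitatory neurons (24%), 7, 15 and 8 in oligodendrocyte precursors (12.4%), 0, 0 and 8 in astrocytes (15.4%) and 0, 1 and 5 in endothelial cells (13.9%). Pcdhb9 was the clustered gene furthest above all other classes, at a median of 40.8 CPM in oligodendrocyte precursors (20.4 to 80.8) and 15.6 in inhibitory neurons (log2 3.55, SE 0.20). The 5 clustered genes with the most UMIs were Pcdhga12 (1784), Pcdhgc5 (1328), Pcdhb20 (1307), Pcdhb17 (1259) and Pcdhb14 (1135).

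The summed α and γ clusters also differed between the software versions. In excitatory neurons the summed γ cluster ranged from 22.6 to 71.0 CPM in the 6 libraries of version 3.1.0 and from 113 to 125 in the 4 of version 4.0.0, a ratio of means of 3.30. The α sum ranged from 8.83 to 26.6 and from 51.1 to 61.9 (ratio 3.24), while the β sum overlapped, at 88.2 to 128 and 122 to 147 (ratio 1.33). The γ ratio was 4.49 in oligodendrocyte precursors and 3.66 in astrocytes. Of the 78 members with enough UMIs in excitatory neurons, 38 had ranges that did not overlap between versions, against 35.3% of 13866 genes, and 36 of the 38 were higher in version 4.0.0, as were 2760 of the 4889 genes of that kind. The 2 members higher in version 3.1.0 were Pcdh8 (median 113 CPM against 37.4) and Pcdh15 (85.8 against 51.0). The shares were 6 of 43 members in inhibitory neurons (22.8% of genes), 18 of 40 in astrocytes (29%) and 11 of 38 in oligodendrocyte precursors (23.9%). Version goes with every other difference between replicates 1 to 3 and replicates 4 and 5, and these cannot be told apart. Each rank had 3 libraries of the first and 2 of the second.

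**Figure D4:**
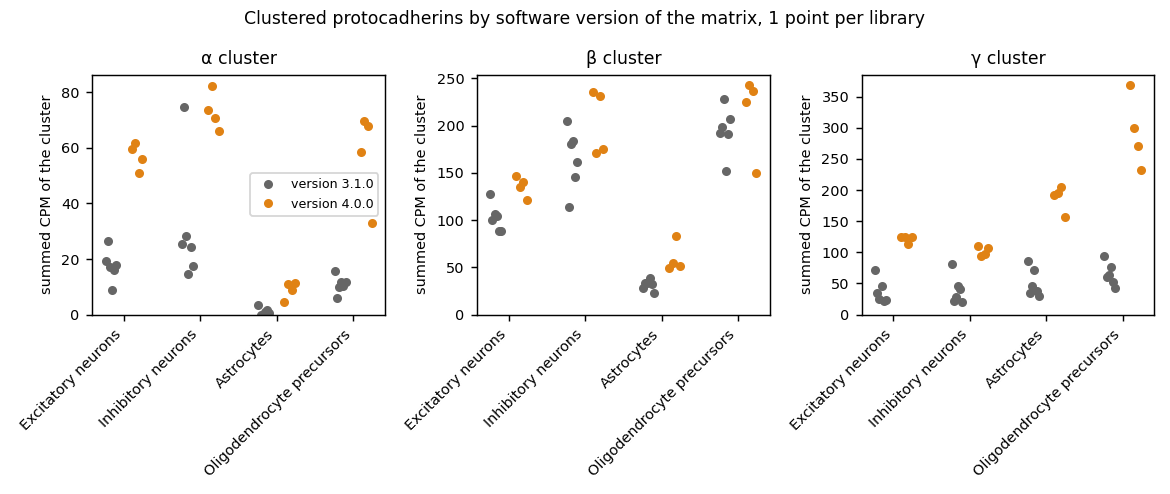
Summed CPM of the α, β and γ protocadherin clusters (panels, linear axes from 0) in 4 cell classes, with 1 point per library in grey for software version 3.1.0 (6 libraries) and orange for version 4.0.0 (4 libraries). The γ points of the 2 versions do not overlap in any of the 4 classes shown, and the β points overlap in all but astrocytes.

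Rank was tested in each class with version as a covariate, with positive values where rank 1 was higher. In 152 tests of a member in a class and 168 tests in a subclass or interneuron type, covering 55 members, 0 passed an adjusted p of 0.05 by edgeR, and 0 of 63564 and 0 of 62106 tests of all genes did (0%). At an unadjusted p under 0.05 there were 6 higher and 2 lower in classes and 15 higher and 0 lower in subclasses, against 1.26% higher and 1.2% lower over all genes in classes and 1.79% and 2.17% in subclasses. Fold changes were above 0 in 101 of 152 and 105 of 168 tests, against 48.9% and 51.1% of tests of all genes. DESeq2's Wald test also gave 0.

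The replicate 1 libraries of the 2 ranks resembled each other more than they did any other number (r 0.762 against 0.0889 over genes of excitatory neurons, after rank and version were removed). Replicate 3 did not (0.273 with its own number against 0.421 with another). With only rank removed, the values of replicates 4 and 5 were 0.783 against 0.709 and 0.871 against 0.862. A fit with the replicate number as a block in place of version gave 2 calls of a member in classes (both lower) and 8 in subclasses and types (7 higher, 1 lower), the 8 being of Cdh13, Pcdh8, Cdh9 and Pcdh7. Over all genes that fit called 0.508% lower and 0.0912% higher in classes, and 0.269% lower and 0.114% higher in subclasses. In endothelial cells, where both lower members lay, it called 1.77% of genes lower. With p-values adjusted over all classes or subclasses together, 0 and 6 remained past the threshold. Without replicate 1 of both ranks none of the 10 passed, without replicate 5 the counts were 0 and 2, and without replicates 2, 3 or 4 they were 2 in classes and 5, 3 and 3 in subclasses.

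Of the 7 calls higher in rank 1 with the block, 3 were of Cdh13 in IT neurons, where the block called higher 0.212% of genes in L2/3 IT, 0.255% in L5 IT and 0.0927% in L6 IT cells. In L2/3 IT cells its rank 1 values in replicates 1 to 5 were 260, 302, 263, 381 and 307 CPM, and its rank 4 values 132, 287, 175, 244 and 248 CPM. Rank 1 was higher in all 5 pairs, and the ranges of the ranks overlapped. The log2 fold change was 0.50 (SE 0.19, adjusted p 1.00 by edgeR) with version and 0.52 (SE 0.12, adjusted p 0.015) with the block, and the log2 ratio of the ranks' mean CPM, with 1 CPM added to each, was 0.47 within version 3.1.0 and 0.48 within version 4.0.0. In L5 IT cells the rank 1 values were 179, 167, 166, 132 and 143 CPM, and the rank 4 values 61.2, 147, 174, 104 and 84.1 CPM. Replicate 3 was the 1 pair in which rank 4 was higher (log2 0.62, SE 0.14, adjusted p 0.022 by edgeR with the block; within versions 0.42 and 0.54). In L6 IT cells the rank 1 values were 244, 356, 297, 279 and 257 CPM, and the rank 4 values 112, 179, 261, 217 and 210 CPM. All 5 pairs were higher in rank 1 (0.56, SE 0.13, adjusted p 0.041 by edgeR with the block; within versions 0.70 and 0.33).

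Pcdh8 gave 3 further calls with the block, in L2/3 IT, L5 IT and Vip cells (0.197% of genes higher in Vip cells). In L2/3 IT cells it had 316, 239, 261, 163 and 144 CPM in rank 1 and 147, 223, 221, 140 and 82.7 CPM in rank 4 (log2 0.51, SE 0.13, adjusted p 0.033 by edgeR; within versions 0.46 and 0.46). In L5 IT cells it had 88.4, 83.6, 74.9, 25.3 and 31.1 CPM in rank 1 and 32.4, 66.2, 50.9, 21.3 and 22.9 CPM in rank 4 (0.67, SE 0.17, adjusted p 0.047 by edgeR; within versions 0.71 and 0.34). All 5 pairs were higher in rank 1 in both subclasses, with the largest gap in replicate 1. In Vip cells it had 864, 389.5, 898, 605 and 219.9 CPM in rank 1 and 581.5, 412, 256 and 126 CPM in rank 4 replicates 1, 3, 4 and 5. Rank 1 was higher in 4 of 4 pairs, with overlapping ranges and means of 595 ± 295 CPM (SD, n = 5) and 344 ± 197 CPM (n = 4; 0.87, SE 0.22, adjusted p 0.027 by edgeR; within versions 0.53 and 1.10). Cdh9 in L2/3 IT cells had 88.1, 98.9, 62.1, 85.6 and 69.5 CPM in rank 1 and 29.8, 67.1, 37.1, 46.9 and 71.2 CPM in rank 4. The rank 4 library was slightly higher in replicate 5, and the other 4 pairs were higher in rank 1 (0.69, SE 0.16, adjusted p 0.023 by edgeR; within versions 0.88 and 0.39).

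Pcdh7 and Pcdh10 ran the other way. In endothelial cells Pcdh10 had 33.0, 2.08, 9.75, 62.1 and 110 CPM in rank 1 and 72.5, 7.19, 11.1, 110 and 166 CPM in rank 4, lower in rank 1 in 5 of 5 pairs (log2 -0.79, SE 0.19, adjusted p 0.020 by edgeR with the block; -0.81 and adjusted p 1.00 with version; within versions -0.97 and -0.67). Pcdh7 there had 13.8, 4.15, 3.25, 15.5 and 46.6 CPM in rank 1 and 37.7, 0, 4.16, 59.3 and 67.8 CPM in rank 4, lower in rank 1 in 4 of 5 pairs (-0.997, SE 0.26, adjusted p 0.030 by edgeR; within versions -0.89 and -1.01). In L5 IT cells, where the block called 0.337% of genes lower, Pcdh7 had 35.5, 13.1, 13.9, 54.2 and 126 CPM in rank 1 and 71.7, 17.2, 24.0, 130 and 132 CPM in rank 4 (-0.65, SE 0.16, adjusted p 0.047 by edgeR with the block; within versions -0.82 and -0.54). Both genes are called higher in neurons, and RNA of excitatory neurons was measured in the endothelial sums: their 6 markers, all with UMIs, summed to 45.5 to 607 CPM (median 191) in rank 1 and 64.7 to 908 CPM (median 391) in rank 4. The part of this in the endothelial result was not tested. In L5 IT cells the same 6 markers summed to 1601 to 2569 CPM in rank 1 and 2028 to 2890 CPM in rank 4, and the 5 markers of that subclass to 156 to 217 and 111 to 210 CPM.

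**Figure D5:**
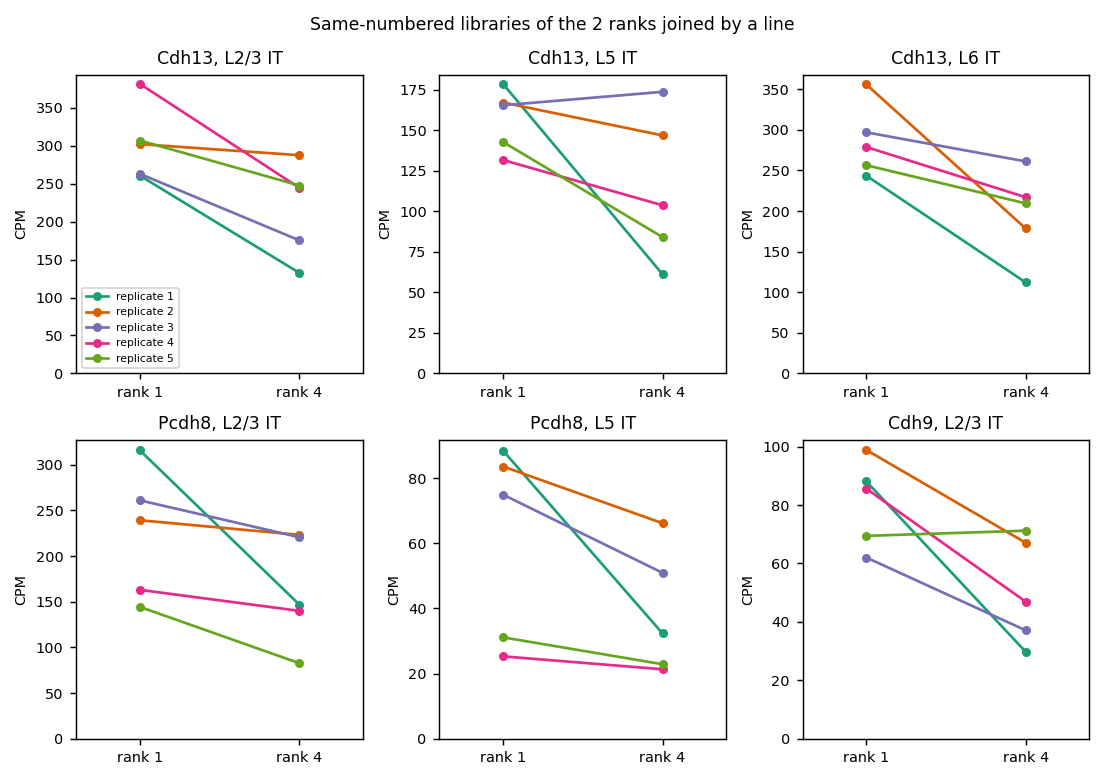
CPM of Cdh13, Pcdh8 and Cdh9 in IT subclasses (panels, linear axes from 0), with the rank 1 and the rank 4 library of the same replicate number joined by a line of its own colour. Lines fall from rank 1 to rank 4 in all 5 pairs of Cdh13 in L2/3 IT and L6 IT cells and of Pcdh8, and the line of replicate 1 falls furthest in 4 of the 6 panels.

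Other members had small unadjusted p-values that passed in neither fit. Pcdhga12 in L5 IT cells had 26.0, 19.7, 19.2, 19.1 and 15.6 CPM in rank 1 and 13.1, 7.94, 8.99, 8.98 and 11.97 CPM in rank 4 (log2 0.91, SE 0.23, unadjusted p 0.0014 and adjusted p 0.995 by edgeR; adjusted p 0.070 with the block; within versions 1.04 and 0.68). The ranges of the ranks did not overlap, and the share of all genes with such ranges was not counted. Pcdhga12 shares its last exon with the other γ genes. Cdh8 in Sst cells had 122, 71.2, 53.5, 164 and 79.2 CPM in rank 1 and 43.8, 45.7, 64.2 and 41.5 CPM in rank 4 replicates 1, 3, 4 and 5, higher in rank 1 in 4 of 4 pairs (1.16, SE 0.32, unadjusted p 0.0016 by edgeR; within versions 0.86 and 1.19). In classes, the smallest p was that of Pcdh10 in pericytes, with means of 54.5 ± 47.0 and 118 ± 72.6 CPM (SD, n = 5 each; -0.96, SE 0.33, unadjusted p 0.010 by edgeR; within versions -1.12 and -1.08). There the 6 excitatory markers summed to 133 to 723 CPM (median 328) in rank 1 and 111 to 1021 (median 454) in rank 4, and their part was not tested. Next came Pcdh8 in oligodendrocyte precursors (55.0 ± 14.8 against 39.8 ± 10.3 CPM, 0.51), Cdh2 in endothelial cells (38.0 ± 13.9 against 55.8 ± 16.5 CPM, -0.54; erythroid barcodes held 44.1 CPM, with an interval of 33.9 to 56.4), Cdh4 in astrocytes (51.1 ± 18.9 against 35.9 ± 7.33 CPM, 0.47) and Cdh6 in oligodendrocyte precursors (74.3 ± 6.75 against 53.6 ± 14.9 CPM, 0.49). The ranges of the ranks overlapped in each of these 5.

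Genes that act with cadherins were taken from 4 lists. Of 12 catenins and direct cytoplasmic partners, 7 were higher in endothelial cells, beside Cdh5, and 4 lower (13.9% and 6.45% of all genes). The 7 were Ctnnb1 (β-catenin, log2 2.43), Ctnna1 (2.22), Afdn (2.09), Vcl (vinculin, 2.03), Jup (plakoglobin, 1.63), Pkp4 (1.56) and Ctnnd1 (p120-catenin, 1.46). Smooth muscle cells were higher in 4 of 12 and lower in 3 (9.28% and 14.1% of all genes), with Ctnna3 at 4.89. In excitatory neurons 3 of 12 were higher and 3 lower (24% and 13.2% of all genes) and in inhibitory neurons 2 and 4 (17.2% and 13.4%), so the shares higher were near those of all genes. Ctnna2 and Ctnnd2 were higher in both neuron classes and in oligodendrocyte precursors, and Ctnnd2 also in astrocytes. Ctnna1 was lower in both neuron classes (-1.86 in excitatory and -1.95 in inhibitory neurons). Of 15 tested genes of the atypical and desmosomal cadherin superfamily, 10 were higher in inhibitory neurons and 9 in excitatory neurons, 1 lower in each, with median log2 fold changes of 1.71 and 1.91. Over all genes, 17.2% and 24% were higher and 13.4% and 13.2% lower, with medians of 0.07 and 0.23. The genes higher in both classes included the seven-pass cadherin Celsr3 (2.14 and 2.59) and the calsyntenin Clstn3 (2.97 and 2.00). Celsr1 was higher in astrocytes (4.97). Of 14 regulators and effectors of clustered protocadherins, 3 were higher in excitatory neurons (Ptk2b, Cyfip2 and Wasf1), a share below the 24% of all genes, and the list's median was -0.15 against 0.23. Among the 5 genes of shedding and processing, Adam10 and Furin were higher in endothelial cells and in microglia (13.9% and 12.1% of all genes). Rank passed for 0 of the 136, 91, 208 and 54 tests of these 4 lists.

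Genes most like the 5 single-copy members with the most UMIs were taken by Pearson's correlation of mean log2 CPM over 19 classes, subclasses and types, among 15728 genes. For Pcdh17 these were Vps37d (0.96), Ythdc2 (0.96) and Lmo3 (0.95), and for Pcdh10 Fam229b, Mttp and Sybu (0.94 each). For Pcdh9 they were Dusp15 (0.89), Sgcb (0.87) and Mapk8ip1 (0.87), for Pcdh7 Ttc4 (0.88), Skp2 (0.88) and Pcdh17 (0.87), and for Cdh2 Aasdhppt (0.89), Them4 (0.87) and Gpatch1 (0.85). The 19 points share libraries, and subclasses are part of their class, so these values are descriptions.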

How the data were processed

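The deposited matrices hold raw UMI counts per gene and barcode. The submitters' processing notes name Cell Ranger 4.0.0 and mm10, while per the file headers replicates 1 to 3 came from version 3.1.0 (31053 genes listed) and replicates 4 and 5 from version 4.0.0 (32285 genes). Libraries kept between 1456 and 13059 barcodes with at least 500 genes and at most 15% mitochondrial counts, at a median of 1313 to 2652 UMIs, after 1227 simulated-neighbour doublets had been removed. Cells were clustered with the Leiden method (leidenalg 0.10.2, resolution 1, 2000 variable genes, 30 components) without any member gene and named from marker lists. After clusters had been seen, the lowest score for naming a subclass was set at 0.75, the marker Nr4a2 was left out, and clusters of low UMI content without their own markers on top, or led by another class's markers, were left unnamed.

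Counts were summed per library and group of at least 20 cells (10 for interneuron types). They were tested with edgeR 4.0.16 (quasi-likelihood, TMM, R 4.3.3), with Benjamini-Hochberg adjustment within each group. Fits of cell groups took genes with at least 50 UMIs and seen in at least 5 libraries. Rank fits took the genes kept by edgeR's filterByExpr. The SE given with a log2 fold change is its absolute value divided by the square root of the F statistic of the edgeR test. Pools are the replicates. Same-numbered libraries deviated together from their rank's mean (r from 0.539 to 0.871 over genes; 0.167 to 0.789 after version was also removed), and all values above 0.1 counted as pairing. With 2 libraries per rank in version 4.0.0, removing version makes replicates 4 and 5 mirror each other, so their values then bear on no pairing. Replicate 1 stood far apart from other numbers in all 3 classes examined (0.762 against 0.0889 in excitatory neurons after version was removed), and others did not: excitatory replicate 3 (0.273 against 0.421), astrocyte replicate 2 (0.315 against 0.384) and endothelial replicate 3 (0.330 against 0.459). With only rank removed, another number was also closer for excitatory replicate 3 (0.692 against 0.717), astrocyte replicates 2 (0.657 against 0.748) and 5 (0.814 against 0.832) and endothelial replicate 2 (0.586 against 0.654). The labels give no shared batch. On simulated data the rank fit of excitatory neurons (12513 genes) recovered 86 of 100 genes changed by log2 1 and 100 of 100 by log2 2, with 6 false calls, and the class fit (15749 genes) recovered 200 of 200 at log2 2, with 7. The simulated counts had a fixed dispersion and no effect of version or replicate number, and only genes with many UMIs were changed. These shares therefore do not measure recovery for members with few UMIs or for rank in other classes. Positions come from GENCODE M21.

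The members and lists were chosen with earlier results of these data known. Full statistics were given by rule to up to 3 members per group that stood above every other group in every library, the 5 largest differences in each direction between neuron classes, and the rank tests that passed or had the 5 smallest p-values. Other named members were chosen after their values had been seen. Alternatives covered scaling, DESeq2 1.42.0, filters, clustering resolution, the block and left-out libraries. Unnamed cells and 4 small classes entered no test, and 2569 excitatory and 559 inhibitory neurons left without a subclass or type entered the class tests only. Log2 ratios within a version compare the ranks' mean CPM with 1 CPM added to each.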

Additional observations from a re-analysis of the deposited data

Results flagged for a closer look

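Of 103 groups of 4 or 5 library values of a named member that were checked for a single value standing apart, 6 had one, and chance gives about 1 in 20. Cdh9 in inhibitory neurons stood at 94.5 CPM in rank 1 replicate 4, with the next library of that rank at 66.5 CPM. Pcdh7 in endothelial cells stood at 46.6 CPM in rank 1 replicate 5, with the next at 15.5 CPM. Pcdh10 in pericytes stood at 137 CPM in rank 1 replicate 5, with the next at 43.1 CPM. Pcdh12 was above 0 in a single library of its rank on 3 occasions: in excitatory neurons of rank 1 replicate 1 (0.204 CPM) and rank 4 replicate 5 (0.0808 CPM), and in inhibitory neurons of rank 4 replicate 5 (1.70 CPM).

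The 2271 cells left without a class entered no comparison. Members summed to 1252 CPM there, from 3626 UMIs.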

How the results depend on the processing

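Calls of a member higher in a group numbered 179 over classes, 34 over subclasses and 18 over interneuron types, and calls in either direction between neuron classes numbered 19. Requiring a log2 fold change of 2 left 71, 7, 7 and 1. Libraries of version 3.1.0 alone gave 119 over classes, and rank 4 libraries alone gave 3 over interneuron types. Without single libraries the counts ran from 167 to 177, 33 to 37, 16 to 19 and 17 to 23, and rank stayed at 0. The excess of Pcdh12 in inhibitory neurons (-1.78) turned to 0.28 without rank 4 replicate 5 and ran to -2.08 without rank 1 replicate 1. Over the named members, 485 values in the fits of cell groups kept their direction and call, 13 lost the call and 1 turned; the losses were those of Cdh13 in L5 PT cells (0.79 under the stricter cell filter) and of Cdh18, Pcdhga10, Pcdhgc5, Pcdhb2 and Pcdh12 between neuron classes. DESeq2's size factors moved the median of all genes by -0.14 in endothelial cells, 0.15 in inhibitory neurons, -0.15 between neuron classes and 0.11 in L5/6 NP cells.

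With the replicate block, rank gave 2 calls of a member in classes and 8 in subclasses. Adjusted over all groups together, 0 and 6 passed. Leaving out replicate 2, 3 or 4 of both ranks gave 2 each in classes and 5, 3 and 3 in subclasses, and leaving out replicate 5 gave 0 and 2. No other setting gave a call of a member for rank. The fits of cell groups without the library block gave 166, 33, 18 and 17 calls.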

Other observations

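Classes too small for a test are given as counts pooled over libraries, with exact Poisson 95% intervals that cover counting error only. In 319 committed oligodendrocyte precursors Pcdh17 had 590 CPM (538 to 647), Pcdh7 417 CPM (373 to 464), Pcdh9 350.1 CPM (309.9 to 394) and Pcdh10 224 CPM (192 to 259). In 111 fibroblasts Pcdh9 had 77.1 CPM (45.7 to 122). In 444 erythroid barcodes Pcdh17 had 79.8 CPM (65.8 to 95.8), Pcdh10 73.5 CPM (60.1 to 88.9) and Pcdh9 43.4 CPM (33.3 to 55.6). The fibroblast interval of Pcdh9 overlaps the last of these. Pcdh10 in 121 perivascular macrophages, at 58.6 CPM (29.3 to 105), was not above its erythroid level.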
